A study of Mus musculus with 3 samples.

Results

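The 10 genes described here are Fcrls, Mgl2, Pf4, Cd163, Lyve1, Folr2, Cbr2, Stab1, Mrc1 and Cd209f, out of 31053 genes in the files. They were chosen by their fall in pancreatic monocytes and macrophages after WGP in these same libraries, so that fall is given below as a description and supports nothing. The question addressed was whether their levels were lower in each macrophage, or whether the macrophages that carry them made up less of the population.

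Live CD45+ leukocytes were sorted from the pancreas of mice, which the study's methods give as C57BL/6 animals of both sexes, and were profiled by droplet single-cell RNA sequencing. The comparison was between a PBS control and WGP, a particulate beta-glucan from yeast injected into the peritoneum, with the pancreas taken either 3 days (3-day WGP) or 7 days (7-day WGP) later. The labels name no transgene or other allele. There was 1 library per group, and the labels do not say how many mice went into it, so there was no replicate check, no test was possible and no p-value is given. Intervals are 95% intervals of counting error only. Cells were barcodes with at least 1000 unique molecular identifiers (UMIs) and at most 30% mitochondrial UMIs, less presumed doublets, and numbered 5029 (PBS), 4689 (3-day WGP) and 4035 (7-day WGP). The libraries held 48219246 to 56849043 UMIs, and the median cell had 5507, 5580 and 7806 UMIs in that order. Libraries shared at most 9 of the kept barcodes pairwise, and 0 were in all 3.

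Many tissue-resident macrophages settle in an organ early in life and renew there, and they clear debris, lipoproteins, haemoglobin and glycoproteins through a broad set of endocytic receptors. Those that lie along vessels and in connective tissue are commonly recognised by several of these genes. Among the 10 genes, 7 encode surface receptors of uptake or recognition. Mrc1 is the mannose receptor CD206, Cd163 the haemoglobin-haptoglobin scavenger receptor, Stab1 the scavenger receptor stabilin-1, Lyve1 a hyaluronan receptor, Folr2 the folate receptor beta, Mgl2 the galactose-binding lectin CD301b and Cd209f a lectin of the DC-SIGN family. Fcrls is an Fc receptor-like molecule with a scavenger receptor domain, Pf4 is the chemokine CXCL4, also known from platelets, and Cbr2 is a carbonyl reductase.

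All 10 are protein-coding genes, and in the GRCm38 annotation they lie at chr3:87250758-87263738 (Fcrls, minus strand), chr11:70130329-70137550 (Mgl2, plus), chr5:90772435-90773383 (Pf4, plus), chr6:124304656-124330527 (Cd163, plus), chr7:110850607-110863239 (Lyve1, minus), chr7:101839988-101857194 (Folr2, minus), chr11:120729489-120732114 (Cbr2, minus), chr14:31139013-31168641 (Stab1, minus), chr2:14229392-14332057 (Mrc1, plus) and chr8:4102787-4105835 (Cd209f, minus). Reads of this assay come from transcript ends, so sequence shared there can split counts between genes. In the last 500 bases of their transcripts, Cbr2 shared 198 of 470 stretches of 31 bases with the pseudogene Gm11771, Mgl2 shared 71 with other genes and Cd163 shared 31, so their counts are uncertain to that extent, and the other 7 shared none.

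As a description, the promoters of the genes were searched for letters bound by macrophage factors. The genes were chosen by a shared fall, so their common course follows in part from the choice. RefSeq promoter sequences (GRCm38.p6, 250 bases before to 50 after the start) were matched for 9 of the 10 genes. The MAF motif TGCTGA, read on both strands as TGCTGA or TCAGCA, was in 6401 of 32851 promoters (19.5%). It was in 5 of the 10 promoters of these genes, which belong to 4 of the 9 genes, namely Fcrls, Stab1, Folr2 and Cbr2. The PU.1-like core GAGGAA, or TTCCTC on the other strand, was in 28.3% of all promoters. Among these genes it was in 6 of the 10 promoters, which belong to 6 of the 9 genes. For each of the 4 genes a promoter with the MAF motif is shown, 5′ to 3′ along the gene, to let its place be seen. Folr2 has another promoter in the table, at chr7:101857141-101857440, which is not shown and holds the motif 220 bases before its start. Capitals mark the motif, which begins 47 bases before the start in Fcrls, 43 before in Stab1, 19 before in this Folr2 promoter and 41 after in Cbr2. A match describes the letters only.
Fcrls promoter, chr3:87263475-87263774, minus strand: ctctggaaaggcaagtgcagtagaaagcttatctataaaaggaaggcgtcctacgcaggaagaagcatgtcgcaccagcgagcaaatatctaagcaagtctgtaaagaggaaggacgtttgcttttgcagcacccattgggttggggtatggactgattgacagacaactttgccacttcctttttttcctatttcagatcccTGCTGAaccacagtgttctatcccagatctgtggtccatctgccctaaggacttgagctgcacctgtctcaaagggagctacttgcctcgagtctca
Stab1 promoter, chr14:31168592-31168891, minus strand: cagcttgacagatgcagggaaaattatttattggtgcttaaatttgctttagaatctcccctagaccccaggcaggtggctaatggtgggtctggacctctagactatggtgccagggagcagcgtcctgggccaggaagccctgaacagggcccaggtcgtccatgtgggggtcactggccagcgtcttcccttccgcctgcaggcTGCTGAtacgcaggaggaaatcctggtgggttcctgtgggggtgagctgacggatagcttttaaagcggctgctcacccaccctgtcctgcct
Folr2 promoter, chr7:101845282-101845581, minus strand: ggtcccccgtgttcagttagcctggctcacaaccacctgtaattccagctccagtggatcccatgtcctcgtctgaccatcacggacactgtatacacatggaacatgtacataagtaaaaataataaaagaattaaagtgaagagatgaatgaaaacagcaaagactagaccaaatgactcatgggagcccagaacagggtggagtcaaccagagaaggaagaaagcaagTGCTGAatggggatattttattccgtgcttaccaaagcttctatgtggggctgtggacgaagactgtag
Cbr2 promoter, chr11:120731972-120732271, minus strand: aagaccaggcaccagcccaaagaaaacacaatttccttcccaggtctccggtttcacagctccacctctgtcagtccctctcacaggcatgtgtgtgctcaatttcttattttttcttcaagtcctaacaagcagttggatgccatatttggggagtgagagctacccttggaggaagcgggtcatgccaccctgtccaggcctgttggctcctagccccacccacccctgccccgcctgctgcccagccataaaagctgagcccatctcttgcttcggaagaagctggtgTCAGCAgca

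In a second clustering of the macrophages, monocytes and dendritic cells, made without the 10 genes, 2 clusters were named by the resident macrophage marker list. They are called here the Gas6-led and the Ms4a7-led resident macrophage-like states, after a gene outside the set that leads each. The Gas6-led state had 1564 CPM (UMIs of the gene per 1000000 UMIs) of Csf1r, the receptor for the macrophage growth factor CSF1, in PBS, and low Ccr2, a monocyte chemokine receptor, at 45.6 CPM. The Ms4a7-led state had 1050 CPM of Csf1r, 685 CPM of Ccr2 and 522 CPM of Cx3cr1, the fractalkine receptor. Smaller Cxcl13-led, Retnla-led and Tppp3-led clusters stayed unnamed. The best list of the Cxcl13-led cluster was also that of resident macrophages, at a mean log2 fold of 1.26. The large peritoneal macrophage list was close behind at 1.25, within the margin set for naming. The Cxcl13-led cells are therefore not counted in the resident states below. The remaining states matched Arg1 macrophages, inflammatory macrophages, Ly6C-high and Ly6C-low monocytes, type 1 and type 2 conventional dendritic cells (cDC1 and cDC2) and migratory dendritic cells. Each name stands for cells like that type. A small Cd7-led cluster near the dendritic cells also stayed unnamed.

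The monocyte/macrophage class, without dendritic cells, held 874 (PBS), 742 (3-day WGP) and 1442 (7-day WGP) cells. The sexes were not balanced between the libraries, and this bears on every comparison below. Among class cells that could be typed by Xist or by Y-linked transcripts, Xist cells were 99.3% in PBS, 14.1% at 3 days and 49.6% at 7 days. Outside the phagocytes the PBS value was 36.8%. Female and PBS can therefore not be told apart among the macrophages, since only 6 class cells of the PBS library carried Y-linked transcripts alone. Values from Xist cells alone are given beside several of the main ones.

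In PBS, most UMIs of every gene came from the resident states: from 66.2% of all Lyve1 UMIs in the library to 94.1% of Cd209f. The Gas6-led state had the higher level of all 10 genes in PBS, although for Fcrls, with 673 CPM (640 to 707) in the Gas6-led and 667 CPM (643 to 692) in the Ms4a7-led state, the intervals overlapped. Pf4 was at 3954 against 1341 CPM, Folr2 at 1645 against 282 CPM, and Mrc1 at 2466 against 797 CPM. Lyve1 (730 against 30.4 CPM), Cd163 (646 against 86.1 CPM) and Cd209f (536 against 15.3 CPM) were the most restricted to the Gas6-led state of the pair. Stab1 (1550 against 665 CPM), Cbr2 (1182 against 368 CPM) and Mgl2 (831 against 380 CPM) lay between.

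Other clusters carried a part of the set. The 34 Cxcl13-led cells of PBS, which also had 1080 CPM of the phosphatidylserine receptor Timd4, held 1977 CPM of Lyve1, 2031 CPM of Pf4 and 1098 CPM of Folr2, but 12.4 CPM of Fcrls and 22.4 CPM of Mgl2. They gave 29.3% of all Lyve1 UMIs of the library. The 62 Retnla-led cells showed the reverse: 974 CPM of Fcrls, 404 CPM of Mrc1 and 207 CPM of Mgl2, and at most 38.5 CPM of the other 7. They gave 16.7% of the Fcrls UMIs. Both clusters were smaller after WGP, with 13 and 1 Cxcl13-led cells and 5 and 3 Retnla-led cells at 3 and 7 days. In the Cxcl13-led cells at 3 days Lyve1 was at 2378 CPM (2175 to 2595), Folr2 at 1413 CPM (1257 to 1582) and Pf4, lower than in PBS, at 1257 CPM (1111 to 1418). The single Cxcl13-led cell at 7 days had 0 Lyve1 UMIs and 1 Pf4 UMI. Fcrls was at 1129 (879 to 1429) and 697 (529 to 901) CPM in the Retnla-led cells at 3 and 7 days. The genes are thus not 1 block, and Fcrls in particular was high in cells with at most 14.6 CPM of Lyve1, Folr2 and Cd209f.

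**Figure D1:**
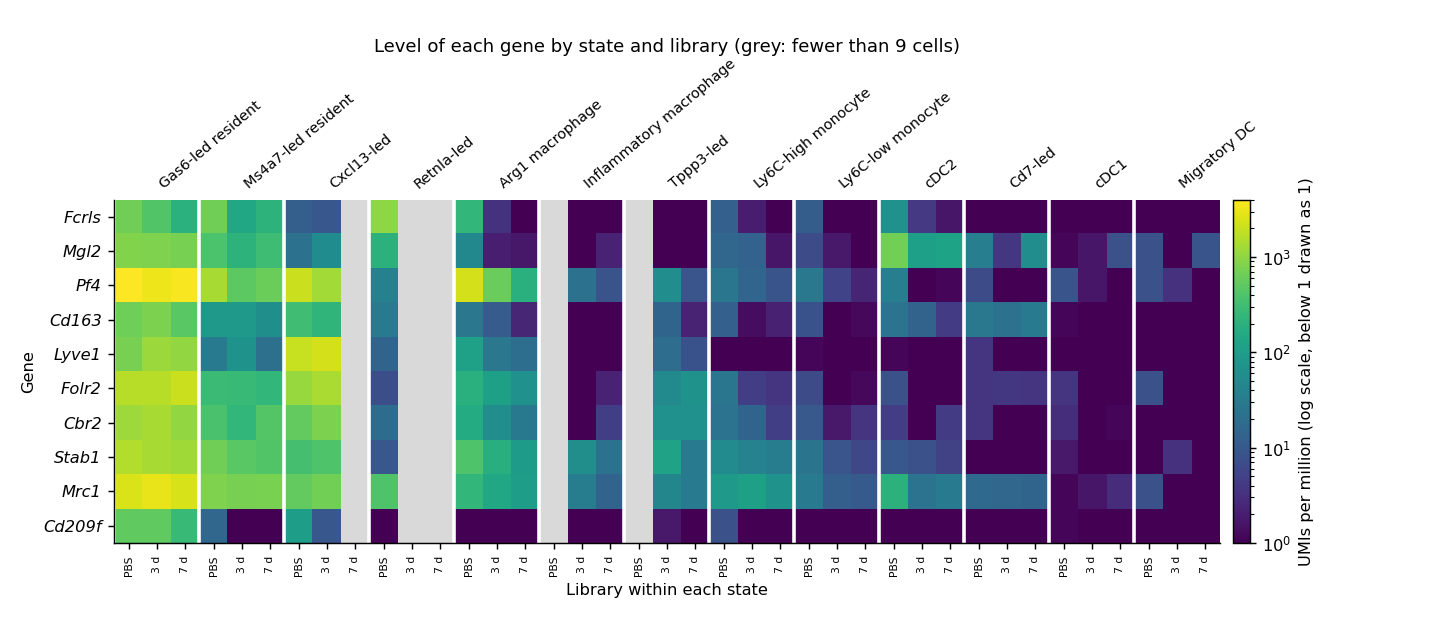
Level of the 10 genes (rows) in each state and library (columns), in CPM on a log colour scale. The Gas6-led resident columns are high for all 10 genes in every library, while cDC1 and migratory dendritic columns are dark throughout.

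Free RNA set a low floor. In B cells, which should lack these genes, the highest PBS level was 3.81 CPM (Mrc1), and after thinning each cell to 1000 UMIs at most 0.469% of 1919 B cells showed a gene, where 61.9% of resident cells showed Mrc1. B cells had a median of 3752 UMIs and resident cells 10255. Cells outside the phagocytes gave between 1.16% (Pf4) and 3.30% (Stab1) of each gene's UMIs in PBS.

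The class levels, by which the genes were chosen, were lower in both WGP libraries for each of the 10. Mrc1 was at 1036 CPM in PBS, 282 at 3 days and 73.5 at 7 days. Pf4 was at 1706, 557 and 78.6 CPM. Stab1 was at 706, 210 and 54.3 CPM. The pattern of a step at 3 days and a further step at 7 days held for the others too. Fcrls went from 571 to 32.3 and 7.93 CPM, the lowest shares of its PBS level at 3 days (5.65%) among the 10. Folr2 was at 580, 179 and 36.3 CPM, Cbr2 at 483, 122 and 26.7 CPM, and Mgl2 at 398, 47.7 and 11.4 CPM. The genes that mark the Gas6-led state within the pair behaved alike. Lyve1 was at 283, 112 and 10.3 CPM, Cd163 at 215, 46.9 and 4.56 CPM, and Cd209f at 142, 21.2 and 1.14 CPM. On the log2 scale of CPM plus 10, the median difference from PBS over the 10 genes was -1.87 at 3 days and -3.81 at 7 days, beside -0.037 and -0.11 over all genes tested. All 10 were at least 2-fold lower in each library, as were 3.87% of 6209 genes at 3 days and 6.24% of 6158 at 7 days, a count the choice of genes fixed.

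Within Xist cells of the class the 3-day values were smaller. Such cells numbered 825 in PBS, 78 at 3 days and 567 at 7 days. At 3 days Lyve1 was higher than in PBS in these cells, by 0.66 (0.52 to 0.79) on the log2 scale, and Pf4 and Cd163 were lower by 0.39 and 0.43, under 2-fold. Folr2, Cbr2, Cd209f and Mrc1 were also under 2-fold, at -0.47 to -0.85. Fcrls (-2.05), Mgl2 (-1.54) and Stab1 (-1.48) were still more than 2-fold lower. At 7 days all 10 stayed far below PBS in Xist cells, from -3.05 for Folr2 to -4.64 for Fcrls. The 3-day difference was thus smaller in Xist cells than in all class cells for each of the 10, and its part in the class values was not tested. Resident cells were 579 of the 825 Xist cells of PBS, 25 of the 78 at 3 days and 19 of the 567 at 7 days. Cxcl13-led cells, which were high in Lyve1, were 34, 10 and 0 of them, so the mix of states differed among Xist cells too.

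The resident states themselves shrank as a share of cells. They made up 609 of 5029 cells in PBS, or 12.1% (11.2 to 13.04), 104 cells or 2.22% (1.82 to 2.68) in 3-day WGP, and 37 cells or 0.917% (0.646 to 1.26) in 7-day WGP. Of the class they were 69.7%, 14.0% and 2.57%. Arg1 macrophage-like cells were 53.8% of the class at 3 days, and inflammatory macrophage-like cells were 33.8% at 7 days. A share of sorted cells does not give the number of macrophages in the organ, so fewer resident cells and more of the other cells cannot be told apart. Among Xist cells of each library the resident share was 29.7%, 5.36% (3.50 to 7.82) and 1.60% (0.968 to 2.49), in the same order. Among cells with Y-linked transcripts it was 0.184% (0.0379 to 0.536), 2.01% (1.48 to 2.65) and 0.282% (0.0916 to 0.657), so it was lowest in PBS there.

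Cells were also described without clustering, by how many of the 10 genes each showed after thinning to 1000 UMIs. Since the genes were chosen by their fall in these libraries, these counts follow in part from the choice and are no separate evidence. Cells showing at least 5 were 276 in PBS, 5.49% (4.87 to 6.15), 52 in 3-day WGP, 1.11% (0.829 to 1.45), and 11 in 7-day WGP, 0.273% (0.136 to 0.487). In Xist cells they were 13.9%, 2.79% and 0.422%. In cells with Y-linked transcripts they were 0 of 1633 in PBS, which allows a share of up to 0.184%, then 22 and 3 cells (0.919% and 0.169%). Of the cells showing at least 5 genes, 93.8%, 92.3% and 100% were in the resident states, which had been built without the genes. Class cells showing none of the 10 went from 25.3% to 53.2% and 85.9%.

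Per resident cell the count of genes differed much less. The median resident cell showed 4 genes in PBS, 4 at 3 days and 3 at 7 days. At least 5 were seen in 42.5% (38.6 to 46.6), 46.2% (36.3 to 56.2) and 29.7% (15.9 to 47.0) of resident cells. In the Gas6-led state these shares were 84.4% (78.9 to 88.9), 86.3% (73.7 to 94.3) and 77.8% (39.99 to 97.2), with overlapping intervals. In the Ms4a7-led state they were 18.2% (14.5 to 22.4), 7.55% (2.09 to 18.2) and 14.3% (4.03 to 32.7), also overlapping.

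**Figure D2:**
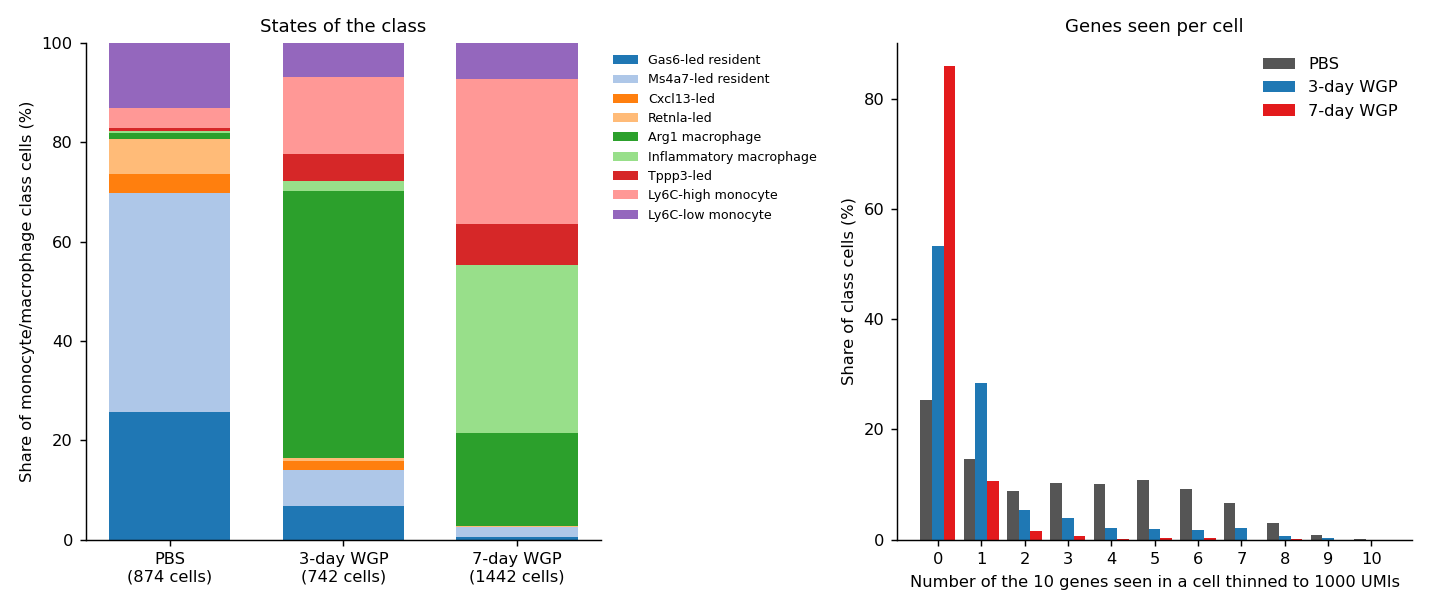
Left, the share of monocyte/macrophage class cells in each state by library; right, the share of class cells (bars) by how many of the 10 genes they showed after thinning to 1000 UMIs. The resident states shrink from 69.7% of the class in PBS to 14.0% and 2.57%, and the bar at 0 genes grows from 25.3% to 53.2% and 85.9%.

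The class difference was then split into a part from the changed shares of states and a part from changed levels within states. A cell that dropped the genes and took on another state counts in the first part, so loss and conversion of resident cells cannot be told apart. The shares part had a median over the 10 genes of 89.7% (81.3 to 98.0) at 3 days and 74.3% (65.0 to 86.1) at 7 days. These brackets hold the medians of the genes' lower and upper limits, and are not an interval of the median. Values above 100% mean that the level within states was higher than in PBS. At 3 days the shares part was 111% for Lyve1, 105% for Mrc1, 100% for Cd163, 93.0% for Folr2, 90.01% for Cd209f, 89.3% for Cbr2 and 85.2% for Mgl2. It was smaller for Stab1 (67.3%), Fcrls (55.5%) and Pf4 (19.6%). At 7 days it ran from 59.2% for Fcrls and 66.4% for Pf4 to 99.7% for Folr2.

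Some state levels in the split rested on few cells. The 10 Arg1 macrophage-like cells of the PBS library had 2370 CPM of Pf4 and 244 CPM of Fcrls, while the 399 cells of 3-day WGP had 594 and 3.42 CPM. Where a state with fewer than 20 cells in 1 library was given the level of the other library, the shares part was 71.7% for Pf4 and 68.7% for Fcrls at 3 days, and 89.1% and 80.2% at 7 days. This alternative was chosen after the data were seen and sets the within-state part of every such state to 0 by construction, the Gas6-led state at 7 days included, so its effect belongs to no single state. The medians were then 96.9% and 96.4%. Fcrls had the lowest shares part of the 10 genes in that version at both times.

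**Figure D3:**
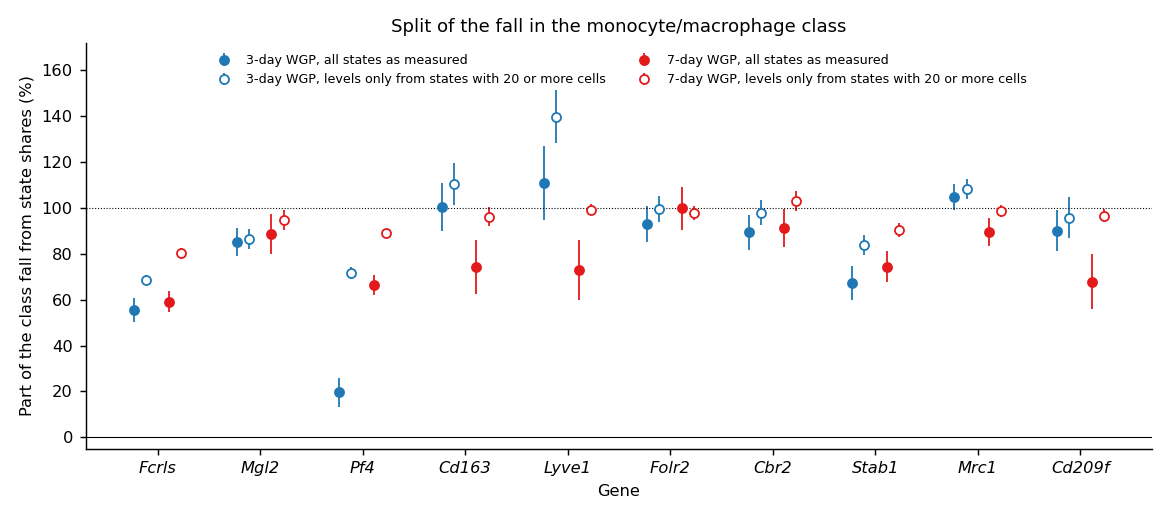
Part of the class difference from PBS that came from state shares (y axis, percent; bars, 95% counting intervals), by gene; filled points use all states, open points take levels only from states with 20 or more cells. Open points lie furthest below the dotted line at 100% for Fcrls, Pf4, Stab1 and Mgl2, and furthest above it for Lyve1 at 3 days.

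Within the resident states as a whole, 1 of the 10 genes was at least 2-fold lower at 3 days, where 0.841% of 6300 genes were, and 2 at 7 days, where 1.58% of 6517 were. Fcrls, at 669 (649 to 689), 274 (241 to 309) and 208 (162 to 262) CPM, was past 2-fold at both times, and Cd209f, at 197, 244 and 52.7 (31.2 to 83.3) CPM, at 7 days. The median log2 difference of the 10 was 0.24 at 3 days and -0.62 at 7 days, beside 0.056 and 0.064 over all genes. Among Xist cells of these states (579, 25 and 19 cells) Fcrls was at 678, 409 (336 to 493) and 168 (116 to 236) CPM. Its 3-day difference was thus less than 2-fold there. Cd209f was at 198, 323 and 71.3 (39.0 to 120) CPM in the same Xist cells. The Gas6-led state was 36.8% (PBS), 49.0% (3-day) and 24.3% (7-day) of resident cells, and it carries most of the set, so each state is described by itself.

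In the Gas6-led state (224, 51 and 9 cells) the genes stayed within 2-fold of their PBS level at 3 days. Of the 10, 0 were at least 2-fold lower, beside 1.51% of 6480 genes, and the median log2 difference was 0.003. Mrc1 was at 2466 CPM in PBS, 3025 at 3 days and 2426 at 7 days. Folr2 was at 1645, 1666 and 2058 CPM. Lyve1 was higher after WGP, at 730, 1148 and 1029 CPM, with log2 differences of 0.65 and 0.49. Per UMI these receptors were thus near or above their PBS level in the Gas6-led cells of both WGP libraries. Cells of this state with Xist and with Y-linked transcripts numbered 221 and 0 in PBS, 13 and 24 at 3 days, and 5 and 1 at 7 days. The sexes thus differed between PBS and 3 days here, and whether the cells after WGP are remaining PBS-like cells was not tested. Pf4 was at 3954, 3242 and 3670 CPM. Stab1 was at 1550, 1339 and 1213 CPM, Cbr2 at 1182, 1357 and 1029 CPM, and Mgl2 at 831, 796 and 722 CPM. Cd163 was at 646, 778 and 476 CPM (323 to 676 at 7 days). Fcrls stood apart, at 673, 426 (367 to 492) and 200 (106 to 341) CPM, and was the gene past 2-fold at 7 days, where 13.4% of 6612 genes were with only 9 cells behind the level. Cd209f was at 536, 531 and 276 (164 to 437) CPM. In the 13 Xist cells of this state at 3 days, Fcrls was at 671 CPM beside 672 CPM in PBS, so its 3-day difference was not seen there, and in the 5 Xist cells at 7 days it was at 146 CPM.

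In the Ms4a7-led state (385, 53 and 28 cells) Fcrls and Pf4 were lower. Fcrls was at 667 CPM in PBS, 145 (114 to 182) at 3 days and 210 (159 to 271) at 7 days, log2 differences of -2.13 and -1.62. Pf4 was at 1341, 503 (443 to 568) and 622 (533 to 722) CPM, log2 differences of -1.40 and -1.10. Fcrls and Pf4 were the 2 of 9 measured genes past 2-fold at each time, beside 1.18% of 6178 genes at 3 days and 2.25% of 6432 at 7 days. The intervals of both WGP libraries lay below PBS for both genes. In Xist cells of the state, 12 at 3 days and 14 at 7 days, Fcrls was at 240 and 175 CPM beside 681 CPM in PBS, and Pf4 at 444 and 546 CPM beside 1372 CPM.

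The other genes of the Ms4a7-led state differed less. Mrc1 was at 797, 732 and 760 CPM and Folr2 at 282, 272 and 246 CPM. Stab1 was at 665, 475 and 416 CPM, Mgl2 at 380, 213 and 304 CPM, and Cbr2 at 368, 245 and 438 CPM. Cbr2 and Mgl2 were thus lowest at 3 days, and Stab1 was lower at both times, by less than 2-fold. Cd163 was at 86.1, 88.0 and 61.5 CPM. Lyve1 was low in this state in all libraries, at 30.4, 70.4 and 21.7 CPM. Cd209f was at 15.3 CPM in PBS and at 0 UMIs in both WGP libraries, where 3 UMIs would be 5.87 and 10.9 CPM. That is below the 20 CPM needed to be counted as measured.

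**Figure D4:**
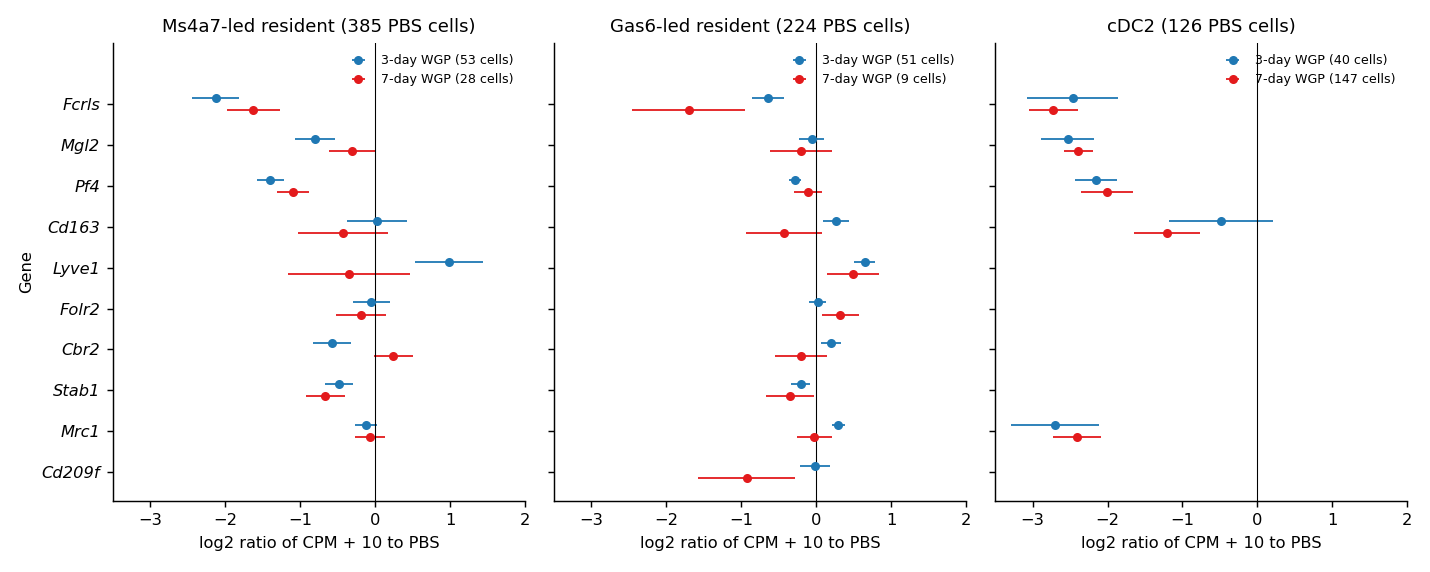
Log2 ratio of CPM + 10 to PBS within the Ms4a7-led and Gas6-led resident states and the cDC2 state, for genes with at least 20 CPM in 1 of the 2 libraries; points are levels and bars 95% counting intervals. In the Gas6-led state most points lie near 0, in the Ms4a7-led state Fcrls and Pf4 lie below -1, and in cDC2 the points lie well to the left, save Cd163 at 3 days.

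Markers of other cell types were also summed within the resident states. The platelet marker list, of interest for Pf4, summed to 4.60, 3.17 and 2.93 CPM in PBS, 3-day and 7-day WGP, with 2, 3 and 5 of its 6 genes at 0. The lymphatic endothelial list, of interest for Lyve1, summed to 2.61, 4.23 and 2.93 CPM, with 3, 4 and 4 of its 5 genes at 0. Neutrophil markers summed to 162, 197 and 328 CPM with 1, 0 and 1 of 7 at 0, and acinar markers to 836, 395 and 340 CPM with 0 of 8 at 0 in each. The cDC2 list summed to 330 (PBS), 529 (3-day) and 214 (7-day) CPM, and the cDC1 list to 320, 351 and 410 CPM. The plasmacytoid dendritic list summed to 342, 389 and 275 CPM, and the erythroid list to 53.1, 39.1 and 149 CPM. B cell markers summed to 44.0, 98.3 and 43.9 CPM, and T cell markers to 3.83, 50.7 and 0 CPM. The acinar, dendritic and neutrophil sums were thus within the range of the levels of the 10 genes in these cells. The part of any of these lists in the results was not tested. The median resident cell had 10255, 8676 and 8050 UMIs.

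A further view took cells of any macrophage, monocyte or dendritic state that showed at least 3 of the other 9 genes after thinning. Each gene was thus read in cells picked without it, but by genes chosen for the same fall. A cell in which the genes fell together would not be picked. The view therefore cannot show such a joint fall, and its differences are no separate evidence. Depending on the gene there were 389 to 449 such cells in PBS, 78 to 96 at 3 days and 15 to 25 at 7 days. The median log2 difference was -0.24 (-0.36 to -0.10) at 3 days and -0.74 (-0.98 to -0.39) at 7 days, against -1.87 and -3.81 in the class. Here too the brackets hold the medians of the genes' lower and upper limits. The 3-day direction did not hold under 2 alternatives, at 0.16 with an upper limit of 10000 UMIs per cell and 0.15 with at least 5 other genes. Fcrls was lowest of the 10 at 3 days, at 706 CPM in PBS, 219 at 3 days and 233 at 7 days (-1.65 and -1.56). Cd209f was lowest at 7 days (-1.66). Mrc1 hardly differed (0.03 and -0.01), and Lyve1 was higher at 3 days and lower at 7 days (0.998 and -0.54). Pf4 differed by -0.58 and -0.95, Stab1 by -0.48 and -0.97, and Cd163 by 0.01 and -0.97. Mgl2 (-0.68 and -0.10), Folr2 (0.18 and -0.40) and Cbr2 (0.00 and -0.40) stayed within 2-fold at both times. Cells picked in this way were a mix of states, and the mix was not held fixed. Of cells showing at least 5 of the 10 genes, the Gas6-led state held 68.5% (PBS), 84.6% (3-day) and 63.6% (7-day). The part of the mix in these differences was not tested.

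Pf4 was also carried by the Arg1 macrophage-like state. Its 10 PBS cells had 2370 CPM of Pf4. After the Arg1 macrophage list, at a mean log2 fold of 3.17, the best list of this state was that of large peritoneal macrophages, at 1.41. Cd5l, Prg4 and Marco were among its leading genes. At 3 days the Arg1 macrophage-like state held 65.7% of all Pf4 UMIs of the library, along with 51.4% of Stab1, 38.0% of Folr2 and 30.4% of Mrc1. This reflected many cells with a modest level: Pf4 was at 594 CPM (576 to 612) over 399 cells at 3 days and at 195 CPM (182 to 209) over 268 cells at 7 days, where the state still held 59.5% of Pf4 UMIs. Stab1 was at 181 and 96.8 CPM there, Mrc1 at 147 and 99.7 CPM, Folr2 at 111 and 67.4 CPM, and Cbr2 at 58.5 and 28.7 CPM. Mgl2 and Fcrls were at 2.00 and 3.42 CPM at 3 days, and Cd209f was at 0 UMIs in every library. The inflammatory macrophage-like cells of 7-day WGP, 487 in number, had at most 23.1 CPM of any of the 10 genes (Stab1).

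**Figure D5:**
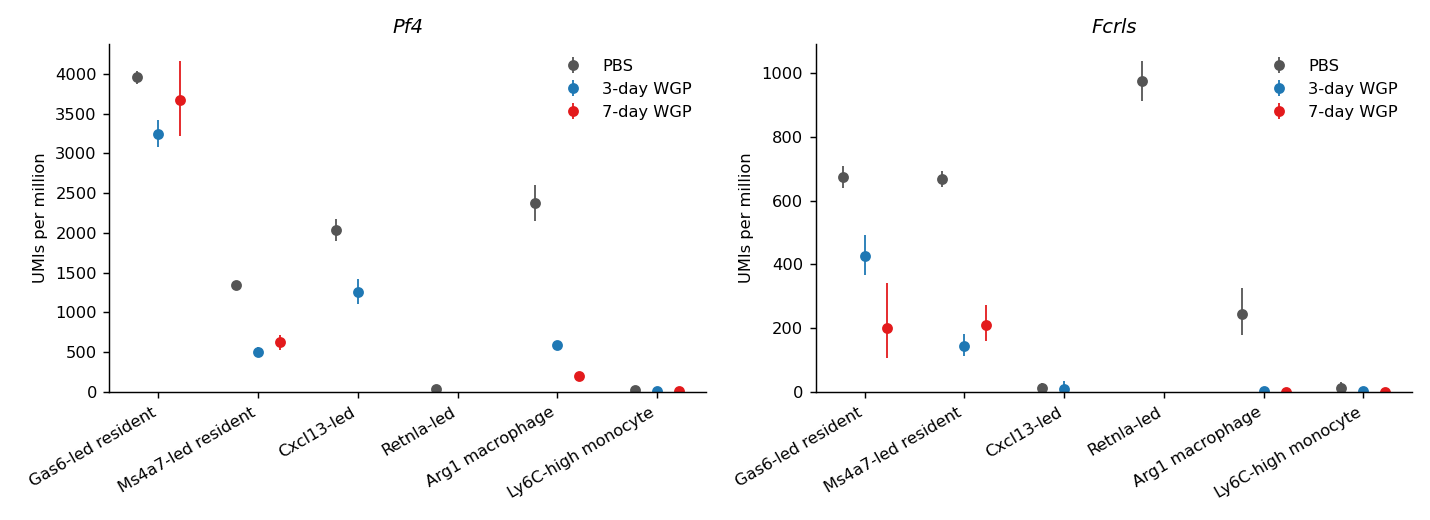
Pf4 (left) and Fcrls (right) by state and library in CPM, with 95% counting intervals; states with very few cells in a library are not drawn. Pf4 is within 2-fold of its PBS level in the Gas6-led state and is seen in Arg1 macrophages of every library, whereas Fcrls is lower after WGP in both resident states and, in Arg1 macrophages, goes from 244 CPM in 10 PBS cells to 3.42 CPM at 3 days.

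Dendritic cells carried mainly Mgl2, which is also known from a subset of dendritic cells in skin. cDC2-like cells gave 23.5% of the Mgl2 UMIs in PBS and 46.1% in 7-day WGP. In this state (126, 40 and 147 cells) Mgl2 was at 677 CPM (639 to 717) in PBS, 109 (81.8 to 141) in 3-day WGP and 121 (106 to 138) in 7-day WGP. Mrc1 was at 209, 23.7 and 31.4 CPM, and Fcrls at 67.0, 3.95 and 1.65 CPM. All 3 were past 2-fold in both WGP libraries. Pf4 was at 34.6, 0 and 1.10 CPM, and Cd163 at 23.3, 13.8 and 4.41 CPM. Of the 5 measured genes 4 were at least 2-fold lower at 3 days and 5 at 7 days, beside 3.58% of 5914 genes and 3.35% of 5848.

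Fewer cDC2 cells showed Mgl2 after WGP. Any Mgl2 UMI was found in 84 of 126 cells (66.7%) in PBS, 5 of 40 (12.5%) at 3 days and 18 of 147 (12.2%) at 7 days, at median depths of 13797, 12040 and 12097 UMIs. Within those cells, which the gene itself picks, Mgl2 was at 1015, 775 and 1005 CPM. Mrc1 was seen in 56 of the 84 Mgl2 cells of PBS and in 11 of the other 42, and Fcrls in 32 and 2. Mgl2, Mrc1 and Fcrls were thus often seen in the same cDC2 cells of PBS. Of the 5 and 18 Mgl2 cells after WGP, 1 and 6 showed Mrc1. In Xist cells alone (123, 9 and 44 cells) Mgl2 was at 682, 48.3 and 226 CPM, and Mrc1 at 211, 16.1 and 22.6 CPM. cDC1 cells had at most 8.75 CPM of any of the genes.

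Monocytes added little. Ly6C-high monocyte-like cells (35, 115 and 421 cells) had Mrc1 at 90.2 (62.8 to 125), 112 (96.1 to 130) and 68.1 (60.5 to 76.5) CPM, with all 3 intervals meeting at least 1 other. Stab1 was at 54.1, 40.04 and 32.6 CPM, and the other 8 were at most 25.8 CPM. Ly6C-low monocyte-like cells had at most 30.9 CPM of any of the 10 (Mrc1 in PBS). Ly6C-high cells were 4.00% of the class in PBS, 15.5% in 3-day and 29.2% in 7-day WGP.

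Other genes of resident macrophages, from a list of 30 that does not hold the 10, followed a like course. Among 29 measured, 15 were at least 2-fold lower in the class at 3 days and 24 at 7 days, beside 3.87% and 6.24% of all genes. Higher were 1 and 0, and the median log2 differences were -1.01 and -2.07. Within the resident states 1 and 3 were lower, beside 0.841% and 1.58% of all genes, and 1 and 2 higher, with medians of -0.06 and -0.40. In the class, Gas6, a ligand for clearance receptors, was at 352 CPM in PBS, 92.0 in 3-day and 16.2 in 7-day WGP. Dab2, an adaptor of endocytosis, was at 701, 181 and 51.9 CPM, and Hpgd, which breaks down prostaglandins, at 365, 38.2 and 28.6 CPM. In the resident states the same 3 differed by less than 2-fold. The 2 highest genes of the list at 7 days went the other way. Cd5l, a secreted scavenger-family protein, was at 36.3, 413 and 67.1 CPM in the class, and Ninj1, which takes part in membrane rupture of dying cells, at 252, 364 and 377 CPM.

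Other endocytic and scavenger receptors included genes that were lower and genes that were higher in the class. This list of 20, which shares Timd4, Clec10a and Mertk with the one before, had 16 measured genes. Of these, 6 were at least 2-fold lower in the class at each time, beside 3.87% and 6.24% of all genes. Another 2 were higher at each time, and the medians were -0.11 and -0.50. Within the resident states 0 and 3 were lower, beside 0.841% and 1.58% of all genes, and 1 and 1 higher. Timd4 was at 114, 46.7 and 6.91 CPM in the class, the lectin Cd209g at 63.5, 9.22 and 0.36 CPM, and the galactose lectin Clec10a at 181, 61.9 and 23.5 CPM. Clec4n, the mannan-binding lectin dectin-2, went the other way, at 47.2, 93.7 and 180 CPM. Marco, a scavenger receptor for particles, was at 78.2, 347 and 174 CPM.

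The genes whose levels most resembled the mean of the 10 across 20 sums of a state in a library were Psd3 (Pearson r = 0.978), Gas6 (0.973), Ctsf (0.970), Cracr2b, Myo5a, Fxyd2, Prune2, Reps2, Scamp5 and Rab34 (0.957). These r values are given over 8152 genes as a description, and the sums share libraries and depth. Psd3 was at 85.1, 78.2 and 82.0 CPM in the resident states of the 3 libraries, and Gas6 at 495, 664 and 357 CPM.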

How the data were processed

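Single-cell RNA sequencing libraries of live CD45+ cells of mouse pancreas were analysed. The authors used 10x Genomics 3′ chemistry and Cell Ranger 3.1.0 on mm10 (GRCm38). They deposited raw counts of UMIs for each of 31053 genes in every barcode, neither normalized nor restricted to cells. Groups came from the labels.

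Barcodes with at least 1000 UMIs and at most 30% mitochondrial UMIs were kept (5249, 4879 and 4174 for PBS, 3-day and 7-day WGP, after 440, 206 and 347 were removed for mitochondrial UMIs). Scrublet (scanpy 1.11.5) marked 0, 1 and 1 doublets by its automatic threshold, so the highest scores were removed up to 0.8% per 1000 barcodes (220, 190 and 139), a choice made after that result was seen. Cells were clustered with Seurat 5.3.0 and sctransform 0.4.2 in R 4.3.3 (3000 variable genes without the 10 genes and sex-linked genes, 30 components, resolution 0.8), and phagocytes were clustered again. Clusters were named by marker lists (mean log2 fold of at least 1, at least 3 genes raised, margin 0.5). The class was every such cluster that was not dendritic (best dendritic list at a mean log2 fold of 0.5 or more), nor the cluster with T and B cell transcripts, a rule set after the clusters were seen.

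Levels are UMIs summed over a state, per 1000000 UMIs (CPM). They count transcript 3′ ends, so they are not per length and levels are compared between libraries or states, not between genes. Log2 differences use CPM + 10, which understates low genes, and a gene counted as lower at 2-fold with at least 20 CPM in 1 of the 2 libraries. Intervals are exact Poisson or Clopper-Pearson intervals, or delta-method intervals for ratios and the split. With 1 library per group no test was run. The scripts were tested on simulated data. Alternatives were other clusterings, filters, thinning depths and Xist cells alone. The named genes are the 10, and from each list the 3 lowest and 2 highest class differences at 7 days with at least 20 CPM in a library. The 10 genes and the lists were chosen with earlier results of these data known. The count of value columns not used was 0.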

Additional observations from a re-analysis of the deposited data

Results flagged for a closer look

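For 6 of the genes the 3-day and 7-day differences from PBS lay on opposite sides of 0 within the resident states as a whole, on the log2 scale of CPM + 10. They were 1.01 and -0.35 for Lyve1, 0.51 and -0.95 for Cd163, 0.37 and -0.35 for Mrc1, 0.29 and -1.73 for Cd209f, 0.26 and -0.35 for Folr2, and 0.21 and -0.24 for Cbr2, at 3 and 7 days. Among Xist resident cells (579, 25 and 19) Folr2 was at 770 (749 to 792), 836 (730 to 954) and 794 (674 to 929) CPM. It was thus not below PBS at either time there, and the intervals overlapped. The others were still above PBS at 3 days and below at 7 days. Cbr2, at 662 (642 to 682) and 686 (590 to 793) CPM in PBS and 3-day WGP, had overlapping intervals. For each gene both differences share the PBS library, each rests on 1 library, and the difference between the times was not tested. The Gas6-led state, which carries most of these genes, was 49.0% of resident cells at 3 days and 24.3% at 7 days. Within that state Lyve1 was above PBS at both times, and Cd209f was at 536, 531 and 276 CPM in PBS, 3-day and 7-day WGP.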

How the results depend on the processing

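The median part of the class difference from state shares was 77.1% at 3 days and 63.1% at 7 days with the second clustering at resolution 0.4, 87.0% at 7 days with an upper limit of 10000 UMIs, and 96.4% at 7 days with levels from states of at least 20 cells. The median log2 difference within the resident states at 3 days was 0.37 at resolution 1.2 and 0.084 in Xist cells alone. The median in cells carrying other genes of the set at 3 days changed sign, to 0.16 with the 10000-UMI limit and 0.15 with at least 5 other genes, and was -0.41 at 3 days and -1.12 at 7 days with thinning to 2000 UMIs. The cause of these changes was not tested. The share of cells showing several genes moved with its definition: in PBS, 3-day and 7-day WGP it was 11.02%, 3.69% and 1.12% without thinning and 9.47%, 2.30% and 0.620% with at least 3 genes. It was 9.02% and 1.66% in PBS and 3-day WGP at 2000 UMIs, 13.9% and 2.79% there in Xist cells alone, 4.22% in PBS with the 10000-UMI limit, and 0% in PBS in cells with Y-linked transcripts alone. In 80 other recomputed values the direction held and the value moved by less than its counting interval. Cells with Y-linked transcripts and the levels from states of at least 20 cells were added after the data were seen. No paired analysis was possible because each group has 1 library, and for the same reason no replicate could be left out. The 7-day resident values rest on 37 cells, 9 of them in the Gas6-led state.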
